A study of Mus musculus with 2 samples.

Results

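The DNA replication genes examined here are 45 named genes that license origins, unwind and copy DNA, load the sliding clamp, supply deoxynucleotides and rebuild chromatin behind the fork. They were chosen by name, not by a limit on their measured values, but with earlier results of these data known. All 45 were found among the 24319 rows of each deposited list. RNA sequencing had been done on lymphatic endothelial cells (LECs), the cells that line lymphatic vessels, from the skin of C57BL/6 mouse embryos at E15.5 (embryonic day). There were 2 libraries, a control labelled wild type and a library labelled Dot1l knockout, and each was made from RNA pooled from 2 to 3 biological replicates. Dot1l encodes the methyltransferase of lysine 79 of histone H3. The deletion is described as endothelial, and the sources used here give neither the Cre driver nor the deleted part of the gene. The labels carry a growth protocol for cultured dermal LECs, and whether the sequenced cells had been cultured is not given either.

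A cell copies its genome by a fixed order of steps. In G1 the origin recognition complex, CDC6 and CDT1 load the MCM2-7 ring onto DNA, which is called licensing. In S phase CDC45 and the GINS complex join that ring to form the active helicase, DNA polymerase alpha with primase lays down primers, and polymerases delta and epsilon extend them while held on DNA by the PCNA clamp, which replication factor C loads. E2F transcription factors, released from retinoblastoma family proteins, drive many of these genes as cells leave G1, whereas most genes of mitosis are driven later through a promoter element called CHR. Transcripts of both groups mark dividing cells, such as the growing endothelium of an embryo.

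The promoters of these genes were searched for such motifs. The genes were not chosen by motif. E2F was already known to drive many of them, and CHR most mitosis genes, so the shares below are descriptions. RefSeq promoters on GRCm38.p6, from 250 bases before the annotated start to 50 after it, were at hand for 37 of the 45 genes. An E2F motif, read as TTTCCCGC, TTTCGCGC, TTTGCCGC or TTTGGCGC on either strand, was in a promoter of 16 of the 37 genes, or 43.2%. It was in 2.60% of the 27025 genes of the promoter table, and in 4.69% of the 10026 promoter-bearing genes that reached 1 FPKM (mapped fragments scaled to transcript length in kilobases and to 1000000 fragments) in either library. The 22 matches lay between base -185 and base 40 relative to the start, with a median of -34, and 14 of them were within 100 bases of it. Stretches around matches in genes of licensing, of the helicase, of priming and synthesis, and of the clamp loader are printed to show the motif in its setting, 5′ to 3′ on the strand of the gene, with the motif in capitals.
Orc1 (chr4:108579412-108579449, plus strand): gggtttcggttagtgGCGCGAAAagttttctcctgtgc
Cdc6 (chr11:98907998-98908035, plus strand): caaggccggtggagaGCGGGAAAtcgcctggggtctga
Cdt1 (chr8:122568032-122568064, plus strand): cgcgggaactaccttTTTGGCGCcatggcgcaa
Mcm3 (chr1:20820263-20820308, minus strand): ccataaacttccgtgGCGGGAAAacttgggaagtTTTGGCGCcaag
Mcm5 (chr8:75109341-75109382, plus strand): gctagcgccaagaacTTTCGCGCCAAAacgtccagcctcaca
Mcm6 (chr1:128359789-128359830, minus strand): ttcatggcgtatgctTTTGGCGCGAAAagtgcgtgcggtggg
Mcm7 (chr5:138172026-138172063, minus strand): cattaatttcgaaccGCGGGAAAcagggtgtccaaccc
Pola1 (chrX:93632271-93632308, minus strand): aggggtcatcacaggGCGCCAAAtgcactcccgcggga
Pole2 (chr12:69228158-69228195, minus strand): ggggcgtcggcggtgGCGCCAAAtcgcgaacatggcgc
Rfc3 (chr5:151651186-151651233, minus strand): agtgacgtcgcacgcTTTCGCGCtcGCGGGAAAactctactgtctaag

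In Mcm5 and Mcm6 matches on the 2 strands overlap each other, and in Mcm3 and Rfc3 the printed stretch holds 2 separate matches. Promoters of mitosis genes were read in the same way. The E2F motif was in 1 of 24 mitosis genes with a promoter, or 4.17%, whereas the CHR element, read as TTTGAA or TTTAAA, was in 20 of 24, or 83.3%. CHR matches were found in 9 of the 37 replication genes, or 24.3%, and in 22.8% of the genes that reached 1 FPKM. The CCAAT box, which binds NF-Y, was in 23 of 37 replication genes (62.2%), 18 of 24 mitosis genes and 42.7% of the genes that reached 1 FPKM. Of 57 further replication pathway genes with a promoter, 15 held the E2F motif, or 26.3%. A match describes letters and does not show that a factor binds there.

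**Figure D1:**
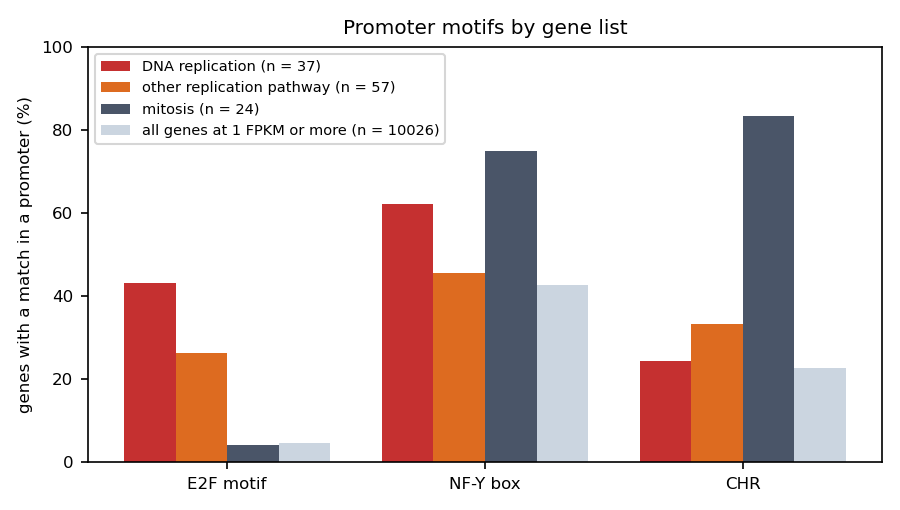
Share of genes, in percent, with at least 1 match to the E2F motif, the NF-Y box (CCAAT) or the CHR element in a RefSeq promoter, for replication genes, other replication pathway genes, mitosis genes and all genes at 1 FPKM or more. The E2F motif is in 43.2% of the replication genes and 4.17% of the mitosis genes, and the CHR element in 24.3% and 83.3%.

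The values are the deposited FPKM. With 1 library for each genotype there are no replicates, so no test, p-value or spread between pools can be had, and each difference compares 2 libraries. Where 2 values of a gene are joined by "and", the first is from the control library and the second from the library labelled Dot1l knockout, called the knockout-labelled library. The depth is not stated. The low values step by whole fragments as they would at about 10200000 fragments in the control and 9080000 in the knockout-labelled library, if nothing else was scaled, and at that depth 5 FPKM in a 2 kb transcript rests on about 102 and 90.8 fragments. Dot1l itself was 5.86 and 10.4 FPKM. That value covers the whole gene, so it does not check the label.

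The 2 libraries differed widely in markers of cell types. All 8 pan-endothelial markers were present in both, with a summed level of 1192 and 246 FPKM, and all 8 were at least 2-fold lower in the latter. Of 6 lymphatic markers 5 were at least 2-fold lower, among them Prox1, the factor of lymphatic fate, at 59.3 and 13.1 FPKM. The other lymphatic marker, Lyve1, was the highest of the 6 and did not fall, at 526.4 and 552.5 FPKM. All 13 macrophage markers were higher, from a sum of 56.5 FPKM (C1qc was listed at 0) to 3686, and so were all 8 mast cell markers, from 104 (Fcer1a was listed at 0) to 12933. Fibroblast markers summed to 3366 and 871 FPKM, pericyte and smooth muscle markers to 162 and 26.6, and keratinocyte markers to 160 and 73.9, with none of these markers at 0. The 5 listed erythroid markers summed to 184 and 38.7 FPKM, with Klf1 listed at 0 in control. That sum rests on Hba-a1, at 173.8 and 25.1 FPKM, whereas Hbb-y was 5.37 and 7.08 and Alas2 4.09 and 6.05. In such bulk samples fewer cells of a type and less RNA per cell cannot be told apart. The part of these markers in the values of the replication genes was not tested.

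Against this background the replication genes stayed close to equality. All 45 were above 1 FPKM in both libraries, and none was listed at 0. As differences of log2(FPKM + 1), knockout-labelled minus control, 43 of the 45 lay within 2-fold (95.6%), beside 67.7% of the 13296 genes that reached 1 FPKM in at least 1 of the libraries. A single gene, Pcna, was at least 2-fold higher, which is 2.22% of the members beside 16.8% of all genes, and a single gene, Chaf1b, was at least 2-fold lower, again 2.22% of the members, beside 15.49%. Among the 9496 genes whose mean FPKM over the 2 libraries lay in the range of the members (3.90 to 156), a comparison chosen after seeing the data, 70.1% lay within 2-fold, 16% were past it on the higher side and 13.8% on the lower side.

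The median log2 difference of the 45 genes was 0.02, beside 0.00 for all genes, with 23 genes above 0 and 22 below. Their median absolute difference was 0.26 on the log2 scale and that of all genes tested was 0.62. Within 1.5-fold lay 37 of the 45 genes (82.2%), beside 48% of all genes. At that threshold 2 members were higher (4.44%, beside 26.1%) and 6 were lower (13.3%, beside 25.9%). The summed level was 1253 and 1358 FPKM, and without Pcna the other 44 genes summed to 1155 and 1143 FPKM, a ratio of 0.990. As a share of all deposited FPKM the 45 genes took 0.302% and 0.256%.

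**Figure D2:**
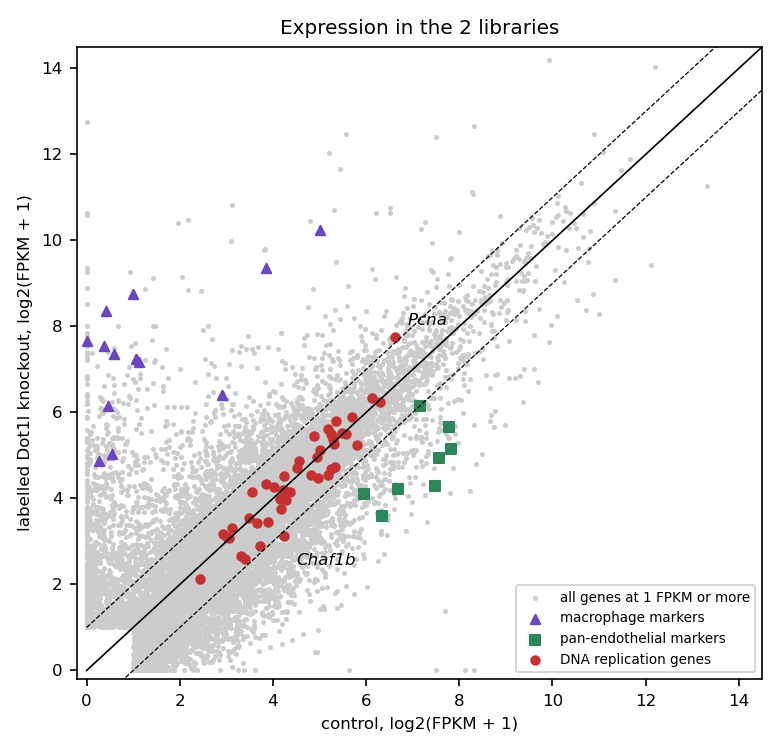
Each point is a gene, with its log2(FPKM + 1) in the control library on the x axis and in the library labelled Dot1l knockout on the y axis, for all 13296 genes at 1 FPKM or more, the 45 replication genes, 8 pan-endothelial and 13 macrophage markers. The solid line marks equal values and the dashed lines a 2-fold difference. Only Pcna and Chaf1b among the replication genes lie outside the dashed lines.

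The order of the genes by level was also much the same in both libraries. Over the 45 genes Pearson's r between the log2 values of the libraries was 0.93 and Spearman's rho 0.92, against 0.74 and 0.74 over all 13296 genes tested, as a description of genes that share 2 libraries. The mitosis genes gave an r of 0.92 and a rho of 0.86, and the further pathway genes 0.92 and 0.89, close to those of the 45 genes. Over the 9496 genes in the members' range of mean FPKM, r was 0.50 and rho 0.59. Levels among all genes span a wider range, which by itself raises a correlation. Pcna ranked first and Orc1 last in both libraries. Mcm6 and Rrm1 came next in control and exchanged places in the other library.

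A scaling that differs between the libraries would move all of these values together. The deposited FPKM summed to 415537 in control and 530294 in the knockout-labelled library. Bringing each library to a sum of 1000000 shifts the median of all genes by -0.33 on the log2 scale, and bringing the mitosis genes to the same median shifts it by 0.26. Under the pseudocounts and scalings tried, 26 of the 45 genes changed sign, and a sign printed for one of them does not hold under every one of these settings. Of the other 19 genes 13 had lower values under every one of them (Chaf1b, Pole, Gins3, Pole2, Prim1, Rfc1, Orc6, Mcm4, Lig1, Pola2, Cdc45, Rfc4 and Orc1) and 6 had higher ones (Pcna, Mcm10, Rfc2, Rfc5, Mcm5 and Gmnn).

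Genes of origin recognition and licensing all lay within 2-fold, 8 of 8, with a median log2 difference of 0.07. Orc1, the ATPase subunit of the origin recognition complex whose level varies with the cell cycle, was the lowest member at 4.43 and 3.38 FPKM. Orc6, the smallest subunit, was 37.2 and 24.9 FPKM, a log2 difference of -0.56. Among the 5 listed subunits these are the farthest apart in level. The ratio of the highest to the lowest of these 5 was 8.41 in control and 7.36 in the other library. Orc4, a subunit outside the list, was 24.96 and 28.50 FPKM and so above Orc6 in the latter. These ratios do not cover it. The remaining listed subunits differed less: Orc2 was 15.3 and 18.2 FPKM, Orc3 was 11.7 and 9.85, and Orc5 was 10.3 and 10.7. Exons of Orc2 overlap those of Nif3l1 on the other strand over 29.8% of the annotated exon bases of Orc2 (GENCODE vM21), and the sources used here do not say whether strand was used in counting.

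The loaders of the MCM ring were low in both libraries. Cdc6 was 7.09 and 7.57 FPKM. Cdt1 was 7.64 and 8.96 FPKM. Gmnn encodes geminin, which holds CDT1 inactive after origins have fired so that no origin is licensed again, and it was 40.0 and 54.7 FPKM, 1.37-fold higher. In both libraries the inhibitor thus exceeded its target in transcript level per length.

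The MCM2-7 genes, whose products form a ring of 6 different subunits, had nearly the same mean level in the 2 libraries, 50.65 and 49.97 FPKM. Mcm6 was the highest at 77.6 and 74.5 FPKM, and Mcm3 was 51.0 and 58.1. Mcm7 was 46.7 and 44.1 FPKM, and Mcm2 was 38.5 and 37.7. The 2 subunits that differed most did so in opposite directions: Mcm4 was 54.9 and 37.1 FPKM (log2 difference -0.55), and Mcm5 was 35.2 and 48.3 (0.44). The ratio of the highest to the lowest subunit was 2.201 and 2.007.

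The factors that turn the ring into a helicase were less uniform. Mcm10, which acts at the activation step, was 10.7 and 16.6 FPKM, 1.56-fold higher and the second largest positive log2 difference of the list (0.60). Cdc45 was 17.1 and 12.5 FPKM, a log2 difference of -0.42. The 4 GINS genes encode a complex of 4 subunits, and their mean was 20.3 FPKM in each library. Gins1 was 22.5 and 28.5 FPKM, Gins2 22.05 and 25.19, and Gins4 27.1 and 22.4. Gins3 was 9.58 and 5.06 FPKM, 1.89-fold lower, so that the ratio of the highest to the lowest GINS gene was 2.83 in control and 5.64 in the knockout-labelled library. Exons of Gse1 on the other strand cover 67.3% of the annotated exon bases of Gins2, and Gse1 was 1.79 and 4.98 FPKM.

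**Figure D3:**
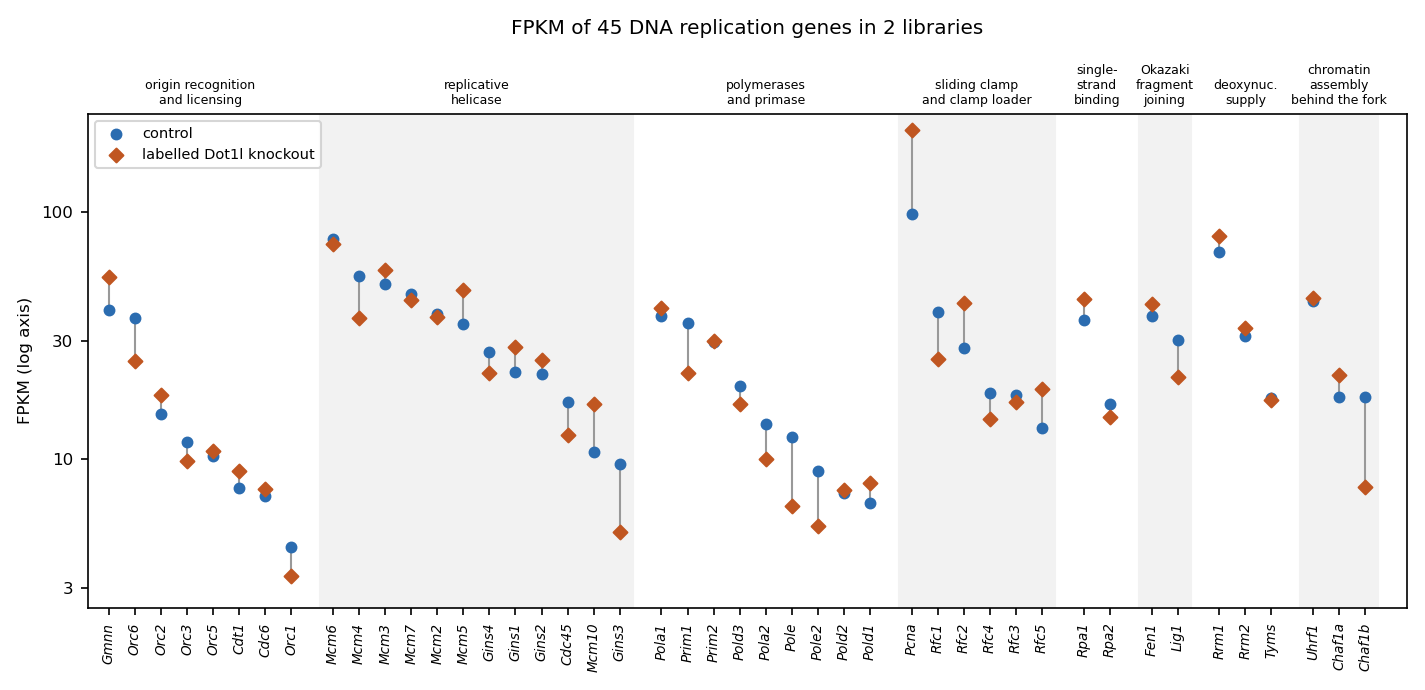
FPKM (log axis) of each of the 45 replication genes in the control library (circles) and the library labelled Dot1l knockout (diamonds), grouped by role and ordered by control level within each role. A line joins the values of a gene. For 37 genes the difference of log2(FPKM + 1) lies within 1.5-fold, while Pcna is 97.7 and 215 FPKM and Chaf1b 17.9 and 7.70.

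Genes of polymerases and primase had the lowest median of the larger role groups, -0.23, and all 9 lay within 2-fold. Pole, the catalytic subunit of the leading-strand polymerase epsilon, was 12.3 and 6.47 FPKM, 1.90-fold lower. Its partner subunit Pole2 was 8.99 and 5.37 FPKM, 1.67-fold lower. Prim1, the catalytic subunit of primase, was 35.4 and 22.3 FPKM, 1.59-fold lower. These 3 genes and Gins3 lie nearest to the 2-fold line from inside, with log2 differences of -0.83 for Pole, -0.65 for Pole2, -0.65 for Prim1 and -0.80 for Gins3. With each library brought to a sum of 1000000 all 4 passed that line, at -1.21, -1.02, -1.005 and -1.19.

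The rest of the synthesis machinery differed less. Prim2, the regulatory subunit of primase, was 29.67 and 30.03 FPKM (log2 difference 0.02), beside the lower value of Prim1. Pola1, the catalytic subunit of polymerase alpha, was 37.96 and 40.95 FPKM, and its partner Pola2 was 13.93 and 10.02 (log2 difference -0.44). The genes of polymerase delta were low or moderate in both libraries. Pold1, its catalytic subunit, was 6.64 and 7.97 FPKM, Pold2 was 7.33 and 7.50, and Pold3 was 19.7 and 16.7.

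The sliding clamp stood apart from its loader. Pcna was the most abundant of the 45 transcripts in each library, at 97.7 and 215 FPKM, 2.195-fold higher and a log2 difference of 1.13. It kept a higher value under every pseudocount and scaling, from 0.78 to 1.41 on the log2 scale, but lay below 2-fold with the libraries brought to a sum of 1000000 (0.78, or 0.89 without small RNA genes) or to the same upper quartile (0.998, just under the line). GENCODE names 2 processed pseudogenes of Pcna, neither of which is listed in the files, so the assignment of reads between them and Pcna is not known. Of the 5 loader genes, Rfc1, the large subunit, was 39.6 and 25.5 FPKM, 1.55-fold lower. Rfc3 was 18.2 and 17.0 FPKM and Rfc4 was 18.46 and 14.52. Exons of Eif4a2 on the other strand cover 12.7% of the exon bases of Rfc4, and Eif4a2 was 149.8 and 146.7 FPKM.

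The other loader subunits had higher values in the knockout-labelled library. Rfc2 was 28.3 and 42.7 FPKM, and Rfc5 was 13.4 and 19.2. Both share exon bases with a gene on the opposite strand that was higher in the same library. Lat2, an adaptor gene of immune cells, covers 15.1% of the exon bases of Rfc2 and was 0.271 and 62.9 FPKM. Wsb2 covers 10.7% of the exon bases of Rfc5 and was 17.5 and 42.3 FPKM. Orc6, which had a lower value, also shares exon bases, 6.93% of them, with an opposite-strand gene that was higher, Vps35 at 63.7 and 152 FPKM. The part of these overlaps in the values of Rfc2, Rfc5 and Orc6 was not tested. Among the replication genes 16 share exon bases with another annotated gene, 13 of them with one on the opposite strand. Only some of these are named here.

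Pcna and Chaf1b, the genes outside 2-fold, both lacked the E2F motif as spelled above, and so did 19 of the genes within 2-fold that had a promoter. The 16 genes with the motif had a median log2 difference of -0.07, from -0.80 (Gins3) to 0.44 (Mcm5), and the 21 without it one of 0.03, from -1.12 to 1.13. The 2 promoters are printed whole, 5′ to 3′ on the strand of the gene with the first 50 transcribed bases in capitals, because their genes are the exceptions of the list. Pcna holds a CCAAT box on the opposite strand with its first base at -87, and Chaf1b holds none in this window.
Pcna (chr2:132253131-132253430, minus strand): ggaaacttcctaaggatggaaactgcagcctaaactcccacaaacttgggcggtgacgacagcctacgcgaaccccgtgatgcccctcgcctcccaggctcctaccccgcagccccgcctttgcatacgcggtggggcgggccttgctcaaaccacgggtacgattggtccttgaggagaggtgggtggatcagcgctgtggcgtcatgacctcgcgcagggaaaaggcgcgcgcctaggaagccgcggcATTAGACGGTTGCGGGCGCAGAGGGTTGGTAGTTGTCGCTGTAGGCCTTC
Chaf1b (chr16:93883651-93883950, plus strand): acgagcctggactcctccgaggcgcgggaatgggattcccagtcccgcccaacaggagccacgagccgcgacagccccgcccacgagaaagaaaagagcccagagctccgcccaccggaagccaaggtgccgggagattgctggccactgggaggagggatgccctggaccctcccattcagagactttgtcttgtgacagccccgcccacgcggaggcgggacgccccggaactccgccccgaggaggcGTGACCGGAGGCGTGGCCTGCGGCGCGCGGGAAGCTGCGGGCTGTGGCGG

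Genes that protect single strands and join the new ones were all within 2-fold, 4 of 4. Rpa1 and Rpa2, subunits of the protein that coats single-stranded DNA, were 36.7 and 44.3 FPKM and 16.7 and 14.8 FPKM. Fen1, the nuclease that trims Okazaki fragments, was 37.8 and 42.6 FPKM. Lig1, the ligase that joins them, was 30.2 and 21.4 FPKM, a log2 difference of -0.48. An annotated antisense gene, Gm10143, covers 78.8% of the exon bases of Fen1. Tmem258, also on the other strand, covers 5.37% of them and was 99.98 and 87.0 FPKM.

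Genes of nucleotide supply differed little. Rrm1, the large subunit of ribonucleotide reductase, was 68.9 and 80.0 FPKM, and Rrm2, its small and S phase-restricted subunit, was 31.5 and 33.9. Tyms, which makes thymidylate, was 17.7 and 17.4 FPKM. The 3 log2 differences lay between -0.02 and 0.21.

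The genes of chromatin assembly were divided. Chaf1a and Chaf1b encode the large and middle subunits of chromatin assembly factor 1, which deposits new histones on replicated DNA and is brought there by PCNA. Chaf1a was 17.9 and 21.8 FPKM. Chaf1b was 17.9 and 7.70 FPKM, 2.32-fold lower and a log2 difference of -1.12. The 2 subunits were thus level in control and apart in the knockout-labelled library. Chaf1b remained lower under every pseudocount and scaling, from -1.50 to -0.85, and lay within 2-fold with a pseudocount of 5 (-0.85) or with the mitosis genes at the same median (-0.86). Exons of Ubxn6 on the other strand cover 52.5% of the exon bases of Chaf1a, and Ubxn6 was 12.97 and 13.47 FPKM. Uhrf1, which reads hemimethylated DNA behind the fork and recruits the maintenance methyltransferase, was 43.63 and 44.95 FPKM.

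The wider replication pathway was examined in 71 further genes. Of these 68 lay within 2-fold (95.8%), 2 were higher by at least that much (2.82%, beside 16.8% of all genes) and 1 was lower (1.41%, beside 15.49%), with a median log2 difference of -0.22. All 13 genes of origin firing were within 2-fold, as were all 19 further fork and complex subunits, all 7 of chromatin replication and all 4 of licensing turnover. With each library at a sum of 1000000, 13 of the 71 genes were lower and 56 within 2-fold, with a median of -0.57, and without small RNA genes in that sum 6 were lower, with a median of -0.46. With the mitosis genes at the same median 4 were higher and 1 lower, with a median of 0.06. With a pseudocount of 0.1, 2 of the 71 genes were lower. E2f3 was 9.45 and 4.59 FPKM, 2.06-fold lower as a plain ratio, but its log2 difference with the pseudocount of 1 was -0.90. Under the deposited scaling and a pseudocount of 1 the 3 exceptions act in nucleotide balance or in the retinoblastoma family. Samhd1, which breaks down deoxynucleotides and is known for restricting viruses in myeloid cells, was 9.83 and 31.1 FPKM. Macrophage markers summed to 56.5 and 3686 FPKM, and their part in the value of Samhd1 was not tested. Dctd, which makes the precursor of thymidylate, was 19.5 and 6.15 FPKM. Rbl2, the p130 member of the retinoblastoma family, was 8.39 and 22.5 FPKM.

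Mitosis genes, the group nearest to replication genes in function, also lay mostly within 2-fold, 27 of 28 (96.4%), with none past 2-fold on the higher side and 1 on the lower side (3.57%, beside 15.49% of all genes). Their median was -0.26, and 23 of the 28 had lower values. With each library at a sum of 1000000, 6 were lower by at least 2-fold and 22 within it, with a median of -0.61, and without small RNA genes in that sum 4 were lower, with a median of -0.51. At the same upper quartile 2 were lower. Mki67, the common proliferation marker, was 250 and 141 FPKM, Top2a was 189 and 161, and the exception, Ube2c, was 164 and 37.7. The summed level of the 28 mitosis genes, Mki67 and Ube2c included, was 1601 and 1141 FPKM, a ratio of 0.713. That ratio was 1.08 for the 45 replication genes and 0.990 for those without Pcna. No sum of the mitosis genes without Mki67 and Ube2c was taken, so the value without Pcna has no counterpart. For the 71 further pathway genes the ratio was 0.897, with 46 genes lower and 25 higher. Whether these differences between the groups exceed the spread between pools was not tested, since each genotype has 1 library.

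**Figure D4:**
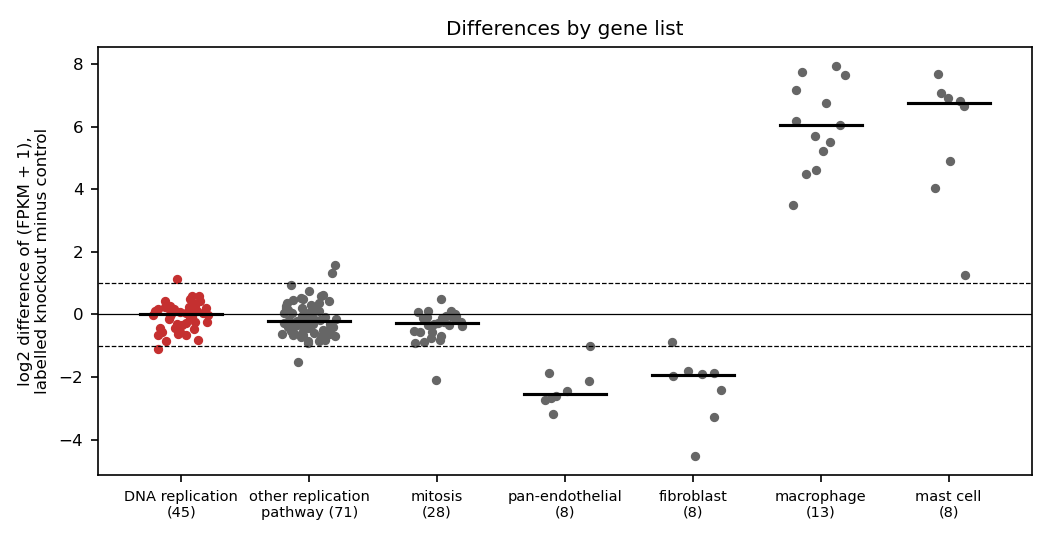
Log2 difference of FPKM + 1, library labelled Dot1l knockout minus control, for each gene of 7 lists (points), with the list median (bars) and the 2-fold limits (dashed lines). The medians of replication genes (0.02), other pathway genes (-0.22) and mitosis genes (-0.26) are near 0 under the deposited scaling. In these lists Pcna, Chaf1b, Samhd1, Rbl2, Dctd and Ube2c lie past the 2-fold limits. Pan-endothelial and fibroblast markers lie below 0 and macrophage and mast cell markers above it.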

How the data were processed

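The authors deposited 1 list of gene symbols and values per library. The values are FPKM as deposited by the authors: Cuffnorm and Cufflinks 2.2.1 are named in the submitters' processing notes, besides STAR 2.5.2b, R 3.3.2 and the build mm9, with no roles given. RNA with an integrity number above 7.0 had been used with the ScriptSeq v2 kit, per the labels' protocols. The gene annotation and any scaling between libraries are not stated in the sources used here.

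From these values, FPKM per library, ratios, and differences of log2(FPKM + 1) were computed with Python 3.11.15 and pandas 2.3.3, and the counting was tested on simulated data. A pseudocount understates the change of low genes. Genes below 1 FPKM in both libraries were left out, and a 2-fold difference on the log2 scale was the limit. Depth was estimated from low values (up to 5 fragments) of genes with 1 GENCODE transcript of 2500 nt or longer, taking fragments as 200 nt: at the best of 500 steps, 83.0% of the 159 values used in control and 76.0% of 175 in the other library came within 0.1 of a whole number. Members and lists were chosen with earlier results of these data known. Named genes are the members, Dot1l, Mki67, Top2a, Orc4, E2f3, other pathway and mitosis genes past 2-fold, cell type markers, and genes that overlap members. Orc4, E2f3 and the overlapping genes were chosen after their values were seen. Promoters come from RefSeq (GRCm38.p6) and overlaps from GENCODE vM21, neither of them the build of the files. Alternatives were other pseudocounts, scalings, minimum values and thresholds.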

Additional observations from a re-analysis of the deposited data

How the results depend on the processing

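No paired analysis was possible because there is a single library per genotype, so leaving out replicates was not possible either. The number of replication genes within 2-fold was between 37 (threshold of 1.5-fold) and 45 (3-fold) against 43, and between 40 and 44 under the other alternatives. At least 2-fold higher were 2 genes at 1.5-fold, 0 at 3-fold, and 0 with each library at a sum of 1000000, with or without small RNA genes, or at the same upper quartile, against 1. At least 2-fold lower were 6 at 1.5-fold, 5 at a sum of 1000000, 3 at that sum without small RNA genes, and 0 at 3-fold, with a pseudocount of 5 or with the mitosis genes at the same median, against 1. The median log2 difference of 0.02 became -0.33 at a sum of 1000000, -0.22 at that sum without small RNA genes, -0.11 at the same upper quartile and 0.29 with the mitosis genes at the same median, where the median of all genes was -0.33, -0.23, -0.11 and 0.26. These moves follow from the construction of each scaling. Small RNA genes took 1.01% of the deposited sum of the control library and 8.31% of that of the other. The 2231 genes at least 2-fold higher and 2060 lower became 1900 and 3330 at a sum of 1000000, 2013 and 3019 without small RNA genes, 2935 and 1602 with the mitosis genes at the same median, 1323 and 921 with a pseudocount of 5, and 1298 and 906 at 3-fold. Depth limits the members near 5 FPKM, such as Orc1 and Gins3, more than those at higher levels per length.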
